A study of Homo sapiens with 8 samples.

Results

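The genes described here are 10 regulators of Wnt reception, of the 20719 gene IDs counted in the series: the secreted antagonists DKK1, DKK2 and DKK3, the co-receptors LRP5 and LRP6, the DKK receptor KREMEN1, the R-spondin receptors LGR4 and LGR5, the ubiquitin ligase ZNRF3 and the feedback inhibitor AXIN2. They were matched by Ensembl gene ID. The set was chosen by measured values of these libraries, because DKK1 differed between the 2 cell lines and LGR4 rose with SMARCB1. Those values are given as a description, without a test. Of the 10 genes, 8 passed the filter on low counts and entered the fit over 11097 genes, while DKK2 and LGR5 had 0 counts in all 8 libraries.

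G401 is a rhabdoid kidney tumour cell line that lacks SMARCB1, a subunit of the SWI/SNF chromatin remodelling complex. One derivative carried a Tet-On SMARCB1 transgene and the other a Tet-On GFP transgene, so that all groups shared the SMARCB1-deficient background and an inducible construct. Each line received 0.1 μg/ml doxycycline (Dox) or an equivalent amount of DMSO for 12 h, giving the groups SMARCB1 Dox, SMARCB1 DMSO, GFP Dox and GFP DMSO with 2 ribosome profiling libraries each. The plates of a condition were pooled, and whether either line is a single clone is not given in the sources used here. Experiments were done in duplicate according to the study's methods, but neither these nor the labels say that the duplicates were independent cultures, so p-values measure the spread between these libraries, which may be technical.

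Wnt ligands bind a Frizzled receptor together with LRP5 or LRP6, which blocks the complex that destroys beta-catenin and lets beta-catenin activate genes with TCF and LEF factors. DKK1 binds LRP5 and LRP6 and, with KREMEN1, takes them out of signalling. ZNRF3 removes Frizzled receptors from the membrane, R-spondins bound to LGR4 or LGR5 take ZNRF3 away, and AXIN2 is a beta-catenin target that feeds back on the destruction complex.

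The libraries held between 5924443 and 14000039 counts on genes. Levels are given as CPM, a gene's count relative to library depth, scaled by TMM, edgeR's adjustment for differences in composition between libraries. SMARCB1 was read 2553 and 1750 times after its induction and 0 times in the other 6 libraries, as the label of SMARCB1 Dox says. The other 3 groups, all at 0, cannot be told apart by it. Over both SMARCB1 Dox libraries its level was at least 1479-fold higher than in SMARCB1 DMSO, taking 3 pooled counts as the floor. Without SMARCB1 DMSO replicate 1 this limit was 1008-fold, and without replicate 2 it was 471-fold. The rhabdoid and keratin markers VIM, KRT8, KRT18 and SMARCA4 summed to between 4885 and 7297 CPM in every library, but their line differences had opposite signs. VIM was at 2437 CPM or more in each SMARCB1-line library and at 1622 or less in each GFP-line library (log2 difference 0.91 under DMSO and 0.84 under Dox; adjusted p = 0.0715 and 0.0882, edgeR's quasi-likelihood test). KRT8 was at -0.46 and -0.94 and KRT18 at -0.63 and -0.79 (edgeR's quasi-likelihood test, adjusted p = 0.570, 0.0754, 0.435 and 0.188). The Dox values of VIM, KRT8 and KRT18 were 0.65, -0.65 and -1.13 without GFP Dox replicate 1, the last of them past the threshold (adjusted p = 0.0368, edgeR's quasi-likelihood test). The part of these differences in those of the regulators was not tested. Markers of other cell types were near 0. The summed level was at most 0.0779 CPM for 5 blood genes, 1.58 CPM for 4 endothelial genes, 2.48 CPM for 4 genes of differentiated epithelium and 1.40 CPM for 5 renal tubule genes. One library stood apart: in GFP Dox replicate 1, 56.4% of entries were multiply aligned, against 25.6% to 39.6% in the other 7. Printed fold changes of single genes from all 8 libraries that compare GFP Dox are given with and without it. Some counts of genes are given only with it.

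DKK1 (ENSG00000107984, chr10:52314281-52318042, GRCh38, plus strand) and LGR4 (ENSG00000205213, chr11:27365961-27472790, minus strand) are the genes for which the set was chosen. The 250 bases before the start of each, from RefSeq on GRCh38.p14, are shown because both genes lie in the Wnt pathway and DKK1 is a known beta-catenin target. Capitals mark the letters CTTTGA or CTTTGT, the core that TCF and LEF factors recognise, on either strand.
DKK1: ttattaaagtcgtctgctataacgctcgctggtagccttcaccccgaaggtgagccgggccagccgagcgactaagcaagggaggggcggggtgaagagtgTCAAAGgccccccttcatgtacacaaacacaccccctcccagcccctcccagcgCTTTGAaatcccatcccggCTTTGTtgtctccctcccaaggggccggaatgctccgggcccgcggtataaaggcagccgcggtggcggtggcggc
LGR4: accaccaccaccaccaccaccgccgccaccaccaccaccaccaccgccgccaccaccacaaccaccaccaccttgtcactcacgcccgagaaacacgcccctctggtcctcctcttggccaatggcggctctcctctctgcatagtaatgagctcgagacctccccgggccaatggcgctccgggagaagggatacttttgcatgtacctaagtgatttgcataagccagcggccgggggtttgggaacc
The DKK1 stretch, chr10:52314031-52314280 on the plus strand, held 3 matches, starting 149, 95 and 76 bases before the start, the first of them on the opposite strand. The LGR4 stretch, chr11:27472791-27473040 on the minus strand, held 0. Either motif was present in 22.8% of 35116 stretches of this length, and 0.584% had 3 or more matches. A match describes letters and is not a bound site. A sequence was matched for 3 of the 10 genes, the last being LRP5, which also held 0 matches.

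DKK1, the secreted antagonist of LRP5 and LRP6, was abundant in the GFP line and nearly absent in the SMARCB1 line. Its footprints numbered 1738 and 1677 in GFP DMSO (143 and 116.5 CPM), 659 and 723 in GFP Dox (109 and 106.9 CPM), 6 and 4 in SMARCB1 DMSO (1.00 and 0.312 CPM), and 2 and 3 in SMARCB1 Dox (0.167 and 0.476 CPM). All 4 GFP-line libraries were far above all 4 SMARCB1-line libraries. In order of group means the levels ran GFP DMSO, GFP Dox, SMARCB1 DMSO, SMARCB1 Dox. The 2 GFP-line groups were neighbours that did not overlap, and the 2 SMARCB1-line groups overlapped.

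From pooled counts, DKK1 was 242-fold higher in GFP DMSO than in SMARCB1 DMSO and 394-fold higher in GFP Dox than in SMARCB1 Dox. The denominators held 10 and 5 counts. Leaving out 1 library at a time gave ratios from 128 to 413 under DMSO and from 227 to 645 under Dox. Without GFP Dox replicate 1 the Dox ratio was 390. In bulk libraries, fewer cells making a transcript and fewer footprints per cell cannot be told apart. DKK1 was low already in SMARCB1 DMSO, where SMARCB1 itself had 0 counts.

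In the GFP line, Dox gave DKK1 a log2 fold change of -0.26, and -0.28 without GFP Dox replicate 1. It ranged from -0.41 to -0.11 with any 1 of the 8 libraries left out. The GFP-line libraries are among those that chose DKK1, so this is a description without a test. In the SMARCB1 line the ratio of Dox to DMSO was 0.516. Its exact binomial interval, from 0.138 to 1.66, covers counting error only, so a change could not be resolved at this depth. The fitted log2 fold change there was -0.95, and ranged from -1.80 to -0.16 with any 1 of the 8 libraries left out. It was the GFP-line libraries that carried DKK1 past the filter.

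DKK2, a related antagonist, was not detected. Its 0 counts among 76402873 allow up to 0.0393 CPM over the 8 libraries.

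DKK3 (chr11:11956207-12009769), a divergent family member that does not act on LRP5 and LRP6 as DKK1 does, was present everywhere. Its level was 37.3 and 44.9 CPM in GFP DMSO, 34.9 and 39.3 in GFP Dox, 49.9 and 59.1 in SMARCB1 DMSO, and 54.1 and 73.1 in SMARCB1 Dox. Each SMARCB1-line library was above each GFP-line library. Neither line difference passed edgeR's quasi-likelihood test, with log2 fold changes of 0.41 (adjusted p = 0.558) under DMSO and 0.77 (adjusted p = 0.0971) under Dox. Without GFP Dox replicate 1 the Dox value was 0.69.

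**Figure D1:**
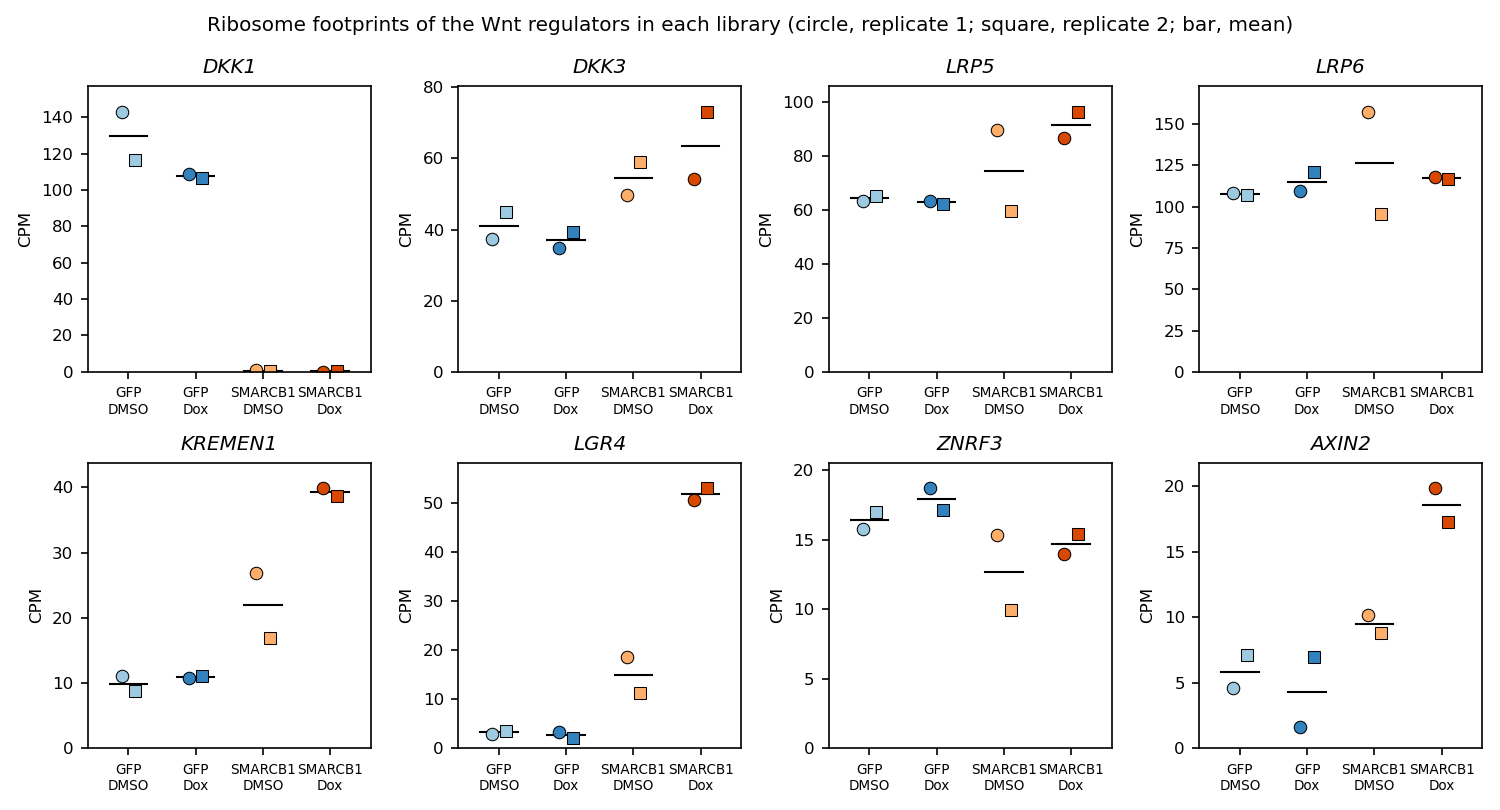
Level of each of the 8 detected genes in CPM (vertical axes, from 0) in the 8 libraries, by group. Circles are replicate 1, squares replicate 2 and bars the mean of 2. DKK1 is near 0 in the SMARCB1 line, and LGR4 reaches 50.5 and 52.9 CPM in SMARCB1 Dox.

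The receptors that DKK1 acts on carried footprints in every library. LRP5 (chr11:68312591-68449275) ranged from 59.5 to 96.4 CPM and LRP6 (chr12:12116025-12267044) from 95.3 to 157.3 CPM over the 8 libraries. Both extremes of LRP6 were SMARCB1 DMSO libraries, so that this group spanned the other 6 libraries. The log2 fold change of LRP5 between the lines was 0.21 under DMSO and 0.54 under Dox (edgeR's quasi-likelihood test, adjusted p = 0.820 and 0.255), the latter 0.56 without GFP Dox replicate 1. For LRP6 the values were 0.23 and 0.03 (adjusted p = 0.807 and 0.970 in edgeR's quasi-likelihood test), the latter -0.04 without GFP Dox replicate 1. Without SMARCB1 DMSO replicate 1, the DMSO values of LRP5 and LRP6 turned to -0.11 and -0.17. The 95% interval of LRP6 under Dox ran from -0.52 to 0.57.

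KREMEN1, the cell-surface receptor that DKK1 uses to remove LRP6, was higher in the SMARCB1 line. Its level was 11.1 and 8.75 CPM in GFP DMSO, 10.7 and 11.1 in GFP Dox, 26.9 and 17.0 in SMARCB1 DMSO, and 39.8 and 38.7 in SMARCB1 Dox. All SMARCB1-line libraries were above all GFP-line libraries, and the 2 SMARCB1 Dox libraries were above the 2 SMARCB1 DMSO libraries. The line difference was 1.84 on the log2 scale under Dox (95% interval 1.17 to 2.52) and passed edgeR's quasi-likelihood test (adjusted p = 0.00178). Without GFP Dox replicate 1 it was 1.82 (adjusted p = 0.00775, edgeR's quasi-likelihood test).

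Under DMSO the KREMEN1 difference was 1.13 (0.47 to 1.79) and lay at the threshold (adjusted p = 0.0466, edgeR's quasi-likelihood test). It fell short when any 1 of 5 libraries was left out. The log2 fold change was then 0.78 without SMARCB1 DMSO replicate 1, 1.31 without GFP DMSO replicate 1, 0.97 without GFP DMSO replicate 2, and 1.13 without either replicate 1 or replicate 2 of SMARCB1 Dox. The adjusted p in edgeR's quasi-likelihood test was 0.259, 0.173, 0.462, 0.0920 and 0.0892 in that order. Within the SMARCB1 line, Dox gave 0.85 (0.21 to 1.49), which did not pass (adjusted p = 0.757), and with GFP it gave 0.14 (0.16 without GFP Dox replicate 1). The difference between the 2 Dox effects, 0.71, did not pass either (adjusted p = 0.981, edgeR's quasi-likelihood test), and was 0.70 without that library.

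KREMEN1 (chr22:29073035-29168333) and ZNRF3 (chr22:28883572-29057488) are neighbours on the plus strand of chromosome 22, 15546 bases apart. Their line differences had opposite signs, and whether their levels varied together was not tested. ZNRF3, which clears Frizzled receptors from the membrane, stood at 15.8 and 17.0 CPM in GFP DMSO, 18.7 and 17.2 in GFP Dox, 15.3 and 9.97 in SMARCB1 DMSO, and 14.0 and 15.4 in SMARCB1 Dox. The SMARCB1-line libraries were all below the GFP-line libraries, by less than the spread among SMARCB1 DMSO libraries. Its line differences were -0.39 under DMSO and -0.29 under Dox (edgeR's quasi-likelihood test, adjusted p = 0.698 and 0.684), the latter -0.23 without GFP Dox replicate 1.

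LGR4, the R-spondin receptor, was lowest in the GFP line and highest in SMARCB1 Dox. It had 35 and 52 counts in GFP DMSO (2.88 and 3.61 CPM), 20 and 14 in GFP Dox (3.31 and 2.07 CPM), 111 and 145 in SMARCB1 DMSO (18.5 and 11.3 CPM), and 604 and 334 in SMARCB1 Dox (50.5 and 52.9 CPM). The groups ordered SMARCB1 Dox, SMARCB1 DMSO, GFP DMSO, GFP Dox. Only the 2 GFP-line groups overlapped. As a description, the log2 difference was 1.81 between SMARCB1 Dox and SMARCB1 DMSO, and 4.27 between SMARCB1 Dox and GFP Dox (4.63 without GFP Dox replicate 1). The pooled counts gave ratios of 3.78 and 19.4, the latter 24.8 without GFP Dox replicate 1.

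The line difference of LGR4 under DMSO shares the SMARCB1 DMSO libraries with the comparison that chose LGR4, and is also given without a test. It amounted to 2.17 on the log2 scale, in libraries where SMARCB1 had 0 counts, and ranged from 1.79 to 2.50 with any 1 of the 8 libraries left out. With GFP, Dox gave -0.28 for LGR4 (adjusted p = 1 by edgeR's quasi-likelihood test), and -0.65 without GFP Dox replicate 1. LGR5, the receptor best known from intestinal stem cells, had 0 counts in all 8 libraries.

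AXIN2, the beta-catenin target that feeds back on the destruction complex, followed an order like that of LGR4. Its level was 4.61 and 7.09 CPM in GFP DMSO, 1.65 and 6.95 in GFP Dox, 10.2 and 8.80 in SMARCB1 DMSO, and 19.8 and 17.3 in SMARCB1 Dox. The SMARCB1-line libraries were all above the GFP-line libraries, and the lowest value, from 10 counts, belonged to GFP Dox replicate 1. Under Dox the line difference was 2.09 (95% interval 1.00 to 3.19; adjusted p = 0.0226, edgeR's quasi-likelihood test). It did not pass without GFP Dox replicate 1 (1.42, adjusted p = 0.0749), SMARCB1 Dox replicate 1 (1.99, adjusted p = 0.147) or SMARCB1 Dox replicate 2 (2.19, adjusted p = 0.0682), all in edgeR's quasi-likelihood test. Without GFP Dox replicate 2 it was 3.48 (adjusted p = 0.000522, edgeR's quasi-likelihood test). Under DMSO it was 0.69 (adjusted p = 0.639). Within the SMARCB1 line Dox gave 0.97 (-0.05 to 1.99; adjusted p = 1 by edgeR's quasi-likelihood test), and with GFP it gave -0.43, or 0.24 without GFP Dox replicate 1. The difference between these effects was 1.40 (adjusted p = 0.981, edgeR's quasi-likelihood test), or 0.74 without that library and 2.80 without GFP Dox replicate 2. With any 1 of the 8 libraries left out, the AXIN2 effect of Dox with GFP ranged from -1.82 to 0.24.

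**Figure D2:**
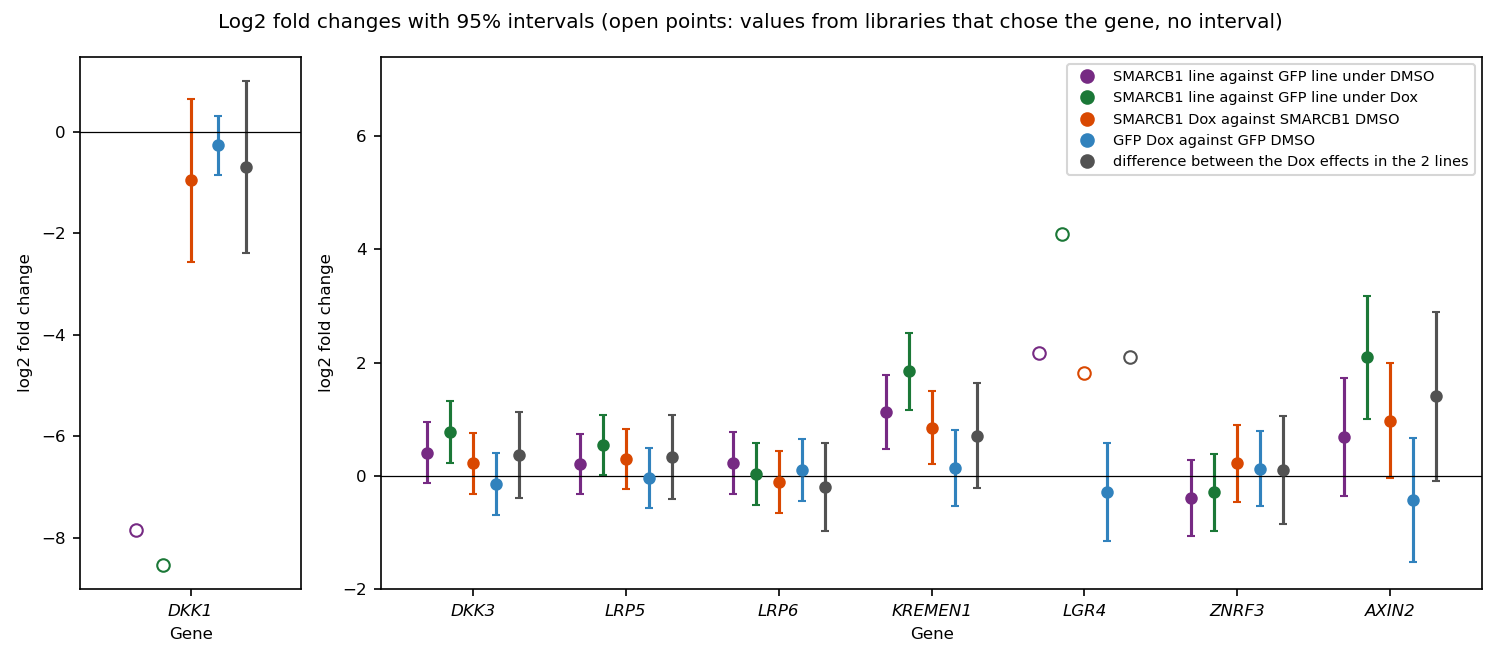
Log2 fold change (vertical axis, one scale for DKK1 and another for the other genes) in 5 comparisons. Bars are 95% intervals of the fit over 8 libraries. Open points are values of DKK1 or LGR4 from libraries that chose them, and carry no interval. The filled DKK1 points also come from libraries that chose DKK1, so their bars are a description. Those that use the SMARCB1 line rest on 2 to 6 DKK1 counts per library there.

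Per kilobase of coding sequence, DKK1 was the most abundant of these genes in the GFP line. It reached 163 ± 23.4 CPM per kb (SD, n = 2) in GFP DMSO, while DKK3 had 37.6 ± 4.97, LRP6 22.2 ± 0.121, LRP5 13.0 ± 0.289 and LGR4 1.14 ± 0.182 there. In SMARCB1 DMSO DKK1 was the lowest of the 8, with 0.822 ± 0.611 CPM per kb (SD, n = 2). In SMARCB1 Dox DKK1 had 0.403 ± 0.273 CPM per kb (SD, n = 2) and was again the lowest. DKK3 was the most abundant in both SMARCB1-line groups, with 49.9 ± 5.95 in SMARCB1 DMSO and 58.2 ± 12.3 in SMARCB1 Dox. In SMARCB1 Dox it was followed by KREMEN1 with 26.4 ± 0.546, LRP6 with 24.2 ± 0.177, LRP5 with 18.5 ± 1.36 and LGR4 with 18.1 ± 0.598. The values for LRP5 and LGR4 in SMARCB1 Dox did not differ beyond their spread.

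**Figure D3:**
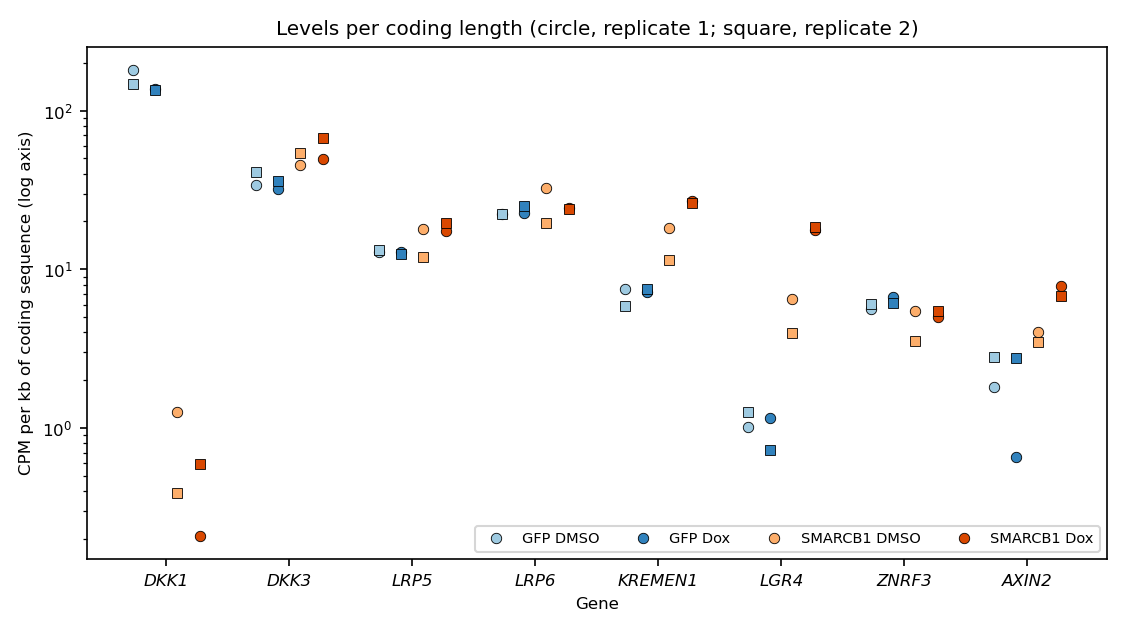
Level in CPM per kb of coding sequence (log axis) of the 8 detected genes in each library, coloured by group. DKK1 moves from the top of the range in the GFP line to the bottom in the SMARCB1 line.

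With DKK1 and LGR4 left out, 1 of 6 genes was called between the lines under DMSO (KREMEN1, higher) and 2 of 6 under Dox (KREMEN1 and AXIN2, both higher), called meaning an adjusted p below 0.05 and a fold change above 2. Of all 11097 genes, 4.97% were called under DMSO, 2.49% higher and 2.49% lower, and 6.08% under Dox, 3.10% higher and 2.98% lower. Nothing is read from these shares, since the set was chosen in the same comparisons. The median log2 fold change of these 6 genes was 0.32 under DMSO and 0.66 under Dox, against 0.02 and -0.01 over all genes tested. Leaving out GFP Dox replicate 1, edgeR called 1 of the 6 and 4.87% of all genes under Dox, and their median was 0.62, against 0.00 over all genes.

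Between SMARCB1 Dox and SMARCB1 DMSO, edgeR called 0 of the 6 genes other than LGR4 and DKK1, whose SMARCB1-line counts were too low. Of all genes it called 0.0180% (0.117% with a replicate block). At an unadjusted p below 0.05, 1 of the 6 and 552 of all genes passed. DESeq2 called 0 of the 6 and 0.306% of all genes. For GFP Dox against GFP DMSO edgeR called 0 of the 8 and 0% of all genes, with 0 and 240 at an unadjusted p below 0.05, and DESeq2 called 0 of both. These 8 include DKK1, which is a description there, since the GFP-line libraries are among those that chose it. For the difference between the Dox effects edgeR called 0 of the same 6 and 0% of all genes, with 0 and 443 at an unadjusted p below 0.05, and DESeq2 called 0 of the 6 and 1 of all genes. Median log2 fold changes of the 6, 8 and 6 genes in these 3 comparisons were 0.26, -0.09 and 0.35, against -0.02, 0.02 and -0.03 over all genes. The last 2 were 0.01 and 0.32 without GFP Dox replicate 1, with 0 called in each.

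The rest of the pathway was followed in 108 further genes, of which 63 were tested and 21 had 0 counts everywhere. Under DMSO, 2 were called higher and 4 lower in the SMARCB1 line, and under Dox 3 higher and 5 lower, which is 9.52% and 12.7% of the 63 against 4.97% and 6.08% of all genes. DESeq2 called 8 in each, and 5.73% and 7.29% of all genes, under DMSO with WNT6 (lower) and PRICKLE1 (higher) in addition. The median log2 fold changes were 0.01 and 0.01, against 0.02 and -0.01 over all genes. With WNT6, at 0 in SMARCB1 DMSO, set to 3 pooled counts there, the median under DMSO was again 0.01. Of the 8 calls under Dox, 7 remained without GFP Dox replicate 1, all but that of FZD7, and the median under Dox was -0.09. In the SMARCB1 Dox effect, the GFP Dox effect and their difference, edgeR called 0 of the 63, and DESeq2 called 0 in each. Of the 63, 12, 0 and 4 had an unadjusted p below 0.05 by edgeR, against 552, 240 and 443 of all 11097 genes. That share was larger among the 63 in the SMARCB1 Dox effect and the difference, and smaller in the GFP Dox effect. Whether the shares differ beyond sampling was not tested.

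Among other Wnt antagonists and their receptors, 1 of 4 tested genes was called. TRABD2A, a metalloprotease that inactivates Wnt ligands, had 21.6 and 26.3 CPM in GFP DMSO, 28.1 and 26.9 in GFP Dox, 8.17 and 6.78 in SMARCB1 DMSO, and 11.1 and 8.09 in SMARCB1 Dox. It was lower in every SMARCB1-line library than in any of the GFP line, with log2 fold changes of -1.69 under DMSO (edgeR's quasi-likelihood test, adjusted p = 0.00349) and -1.50 under Dox (adjusted p = 0.00749; -1.47 without GFP Dox replicate 1). The DMSO call was lost without SMARCB1 DMSO replicate 2 (-1.55, adjusted p = 0.0553) or GFP DMSO replicate 2 (-1.54, adjusted p = 0.0605), and the Dox call without SMARCB1 Dox replicate 2 (-1.30, adjusted p = 0.120).

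Among Wnt ligands and secretion genes, 2 of 10 were called. WNT11, a ligand of beta-catenin-independent signalling, had 25.2 and 32.0 CPM in GFP DMSO and 1.67 and 1.71 in SMARCB1 DMSO. The WNT11 line difference was -4.07 under DMSO and -4.65 under Dox (edgeR's quasi-likelihood test, adjusted p = 7.18e-06 and 4.65e-06), the latter -4.84 without GFP Dox replicate 1. WNT2B was higher by 1.13 under DMSO (adjusted p = 0.00730), and that call was lost without GFP DMSO replicate 1 (1.09, adjusted p = 0.150) or replicate 2 (1.17, adjusted p = 0.109). The line difference of WNT2B under Dox was not called.

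Among Frizzled and alternative receptors, 1 of 10 was called, under Dox. FZD7 had 5.19 and 9.83 CPM in SMARCB1 Dox, 1.83 and 2.57 in SMARCB1 DMSO, 0.827 and 0.887 in GFP Dox, and 0.576 and 1.25 in GFP DMSO. Its difference under Dox was 3.10 (adjusted p = 0.0148, edgeR's quasi-likelihood test), lost without SMARCB1 Dox replicate 2 (2.58, adjusted p = 0.185) or GFP Dox replicate 1 (3.04, adjusted p = 0.0530).

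Among nuclear effectors, 2 of 11 were called in both line comparisons. TLE1, a co-repressor that binds TCF factors, had 82.2 and 50.2 CPM in SMARCB1 DMSO and 8.80 and 4.93 in GFP DMSO, a log2 difference of 3.27 (adjusted p = 4.76e-05 in edgeR's quasi-likelihood test), and 3.21 under Dox (2.99 without GFP Dox replicate 1). PYGO1, a co-activator recruited by beta-catenin, was lower, at -1.58 under DMSO and -2.48 under Dox (edgeR's quasi-likelihood test, adjusted p = 0.00117 and 2.64e-05), the latter -2.26 without GFP Dox replicate 1.

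Among textbook beta-catenin targets other than AXIN2, 1 of 8 was called under DMSO and 3 under Dox, in both directions. BAMBI, a pseudoreceptor that dampens TGF-beta signalling, was lower, at -1.33 and -2.20 (edgeR's quasi-likelihood test, adjusted p = 0.0104 and 0.000253), and its DMSO call was lost without any 1 of the 4 libraries compared (values from -1.40 to -1.27). Under Dox, EPHB3 was lower, at -1.46, (adjusted p = 0.00525) and PRICKLE1 higher by 3.21 (adjusted p = 0.00967). Both calls were lost without SMARCB1 Dox replicate 1, where the values were -1.30 (adjusted p = 0.114) and 2.70 (adjusted p = 0.174) in edgeR's quasi-likelihood test. The Dox values of BAMBI, EPHB3 and PRICKLE1 were -2.51, -1.24 and 3.76 without GFP Dox replicate 1, all called. AXIN2 and BAMBI, both targets of the pathway, lay on opposite sides of 0.

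The lists of cytoplasmic signalling genes (19 tested) and R-spondin and turnover genes (1 tested) had 0 calls in both line comparisons, with 0 by DESeq2. CTNNB1, which encodes beta-catenin, ranged from 199.8 to 347.4 CPM, with line differences of -0.21 and -0.42 (edgeR's quasi-likelihood test, adjusted p = 0.829 and 0.414). CSNK1A1, a kinase that primes beta-catenin for destruction, had 0.24 and 0.45 (adjusted p = 0.780 and 0.348 in edgeR's quasi-likelihood test). TNKS2, a tankyrase that destabilises axins, was at -0.85 under Dox (adjusted p = 0.0452 in edgeR's quasi-likelihood test), short of a 2-fold change. With GFP Dox replicate 1 left out, the Dox values of CTNNB1, CSNK1A1 and TNKS2 were -0.31, 0.30 and -0.86, none called, with TNKS2 at an adjusted p of 0.0674 (edgeR's quasi-likelihood test). RSPO3 had between 1 and 19 counts per library, RSPO1 8 and RSPO2 2 counts in all, and the R-spondin receptor LGR6 had 0. RNF43, the relative of ZNRF3, and CSNK1E were listed at 0. Another gene shares 87.2% and 57.3% of their coding bases, and whether this bears on the 0 was not tested. No such sharing, looked for on the same strand only, was found for the 10 regulators.

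**Figure D4:**
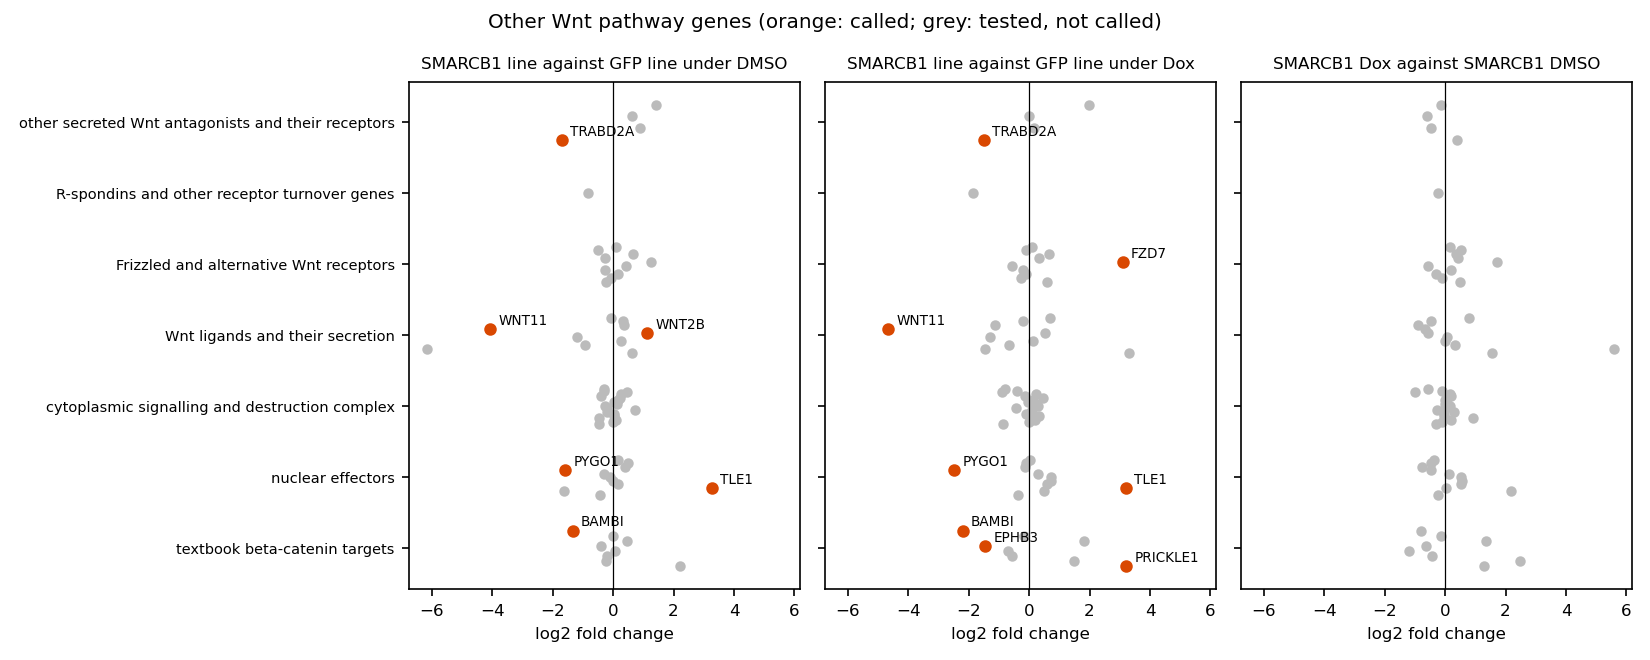
Log2 fold change (horizontal axis) of the 63 tested pathway genes in 3 comparisons, by list, with called genes named in orange. Calls fall on both sides of 0. The grey ligand at -6.15 under DMSO is WNT6, with 0 counts in SMARCB1 DMSO, so that its fitted value is not a bound.

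The genes most like DKK1 over the 8 libraries, by Euclidean distance of log2(CPM + 0.5) centred on each gene's mean, were FBN2 (distance 1.04), RIMS2 (1.57) and S100A6 (1.65). FBN2, an extracellular matrix fibrillin, had 1001 and 1171 counts in GFP DMSO, and 1 or 0 in each SMARCB1-line library. All 3 were at 5 counts or fewer in each of those libraries. The nearest to LGR4 were CPA4 (0.989), HEG1 (1.04) and VLDLR (1.07). VLDLR, a lipoprotein receptor, had 12 and 9 counts in GFP DMSO, 50 and 56 in SMARCB1 DMSO, and 257 and 182 in SMARCB1 Dox. These genes were picked for their likeness, so it is a description.

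**Figure D5:**
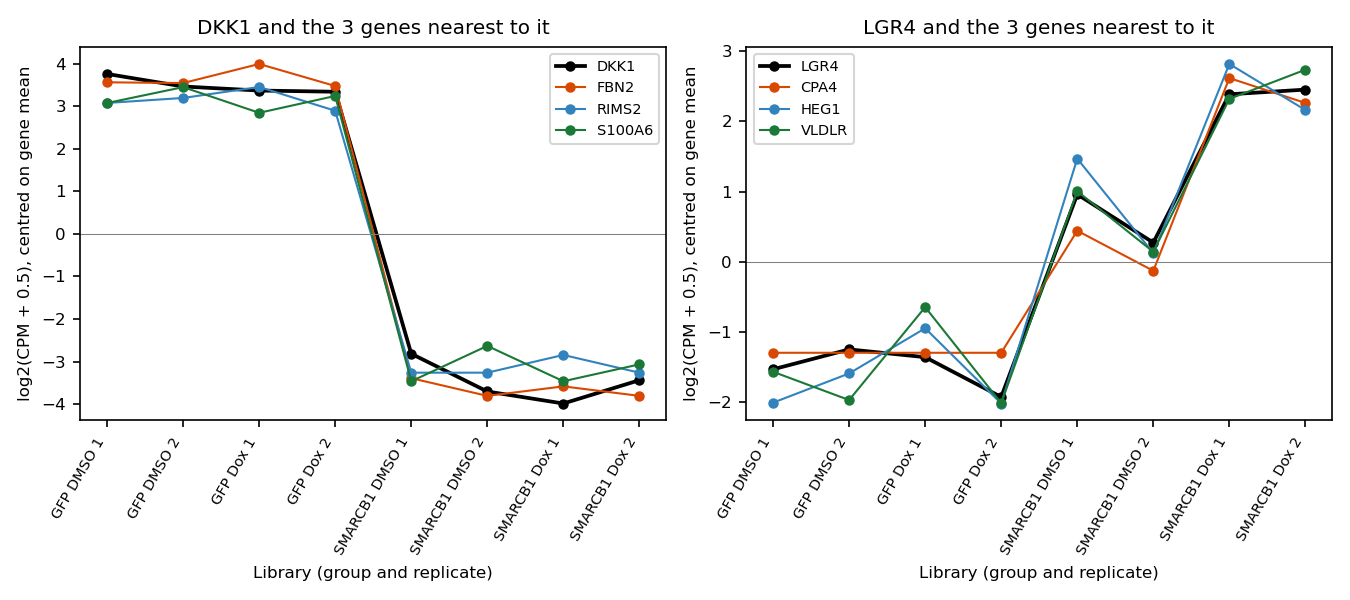
Centred log2(CPM + 0.5) (vertical axis) in the 8 libraries (horizontal axis) of DKK1, LGR4 and the 3 genes nearest to each, with lines joining the points of a gene. The DKK1 group splits by line, and the LGR4 group has 3 levels.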

How the data were processed

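Ribosome footprints of 8 G401 libraries were counted by the authors, who deposited raw counts for each gene, using the RiboLace kit, STAR on hg38 and HTSeq (intersection-strict mode, coding sequence, GENCODE 42). Their strand option, adapter trimming and handling of ribosomal RNA and duplicates are not given in the sources used here. Reads from a gene and an antisense partner therefore may not be told apart. The 5 summary rows of each file, 55.2% to 74.8% of entries, entered neither library sizes nor tests. Names, positions and coding lengths came from GENCODE 44, which matched 20408 of 20719 gene IDs.

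edgeR 4.0.16 (filterByExpr by group, TMM, quasi-likelihood test, 1 term per group, 8 libraries) was run on all genes in R 4.3.3, with Benjamini-Hochberg adjustment over 11097 genes. The code was tested on simulated data. Intervals of log2 fold changes are 95% intervals of that fit. Alternatives were DESeq2 1.42.0, RLE or library-size scaling, other filters, robust estimation, only the groups compared, a replicate block and leaving out each library, which was extended to the called pathway genes, and for GFP Dox replicate 1 to all listed genes, after seeing the data. Where that left 1 library in a group, it was assumed to vary like the other groups.

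The regulators and lists were chosen with earlier results of these data known. Calls of DKK1 between the lines and of LGR4 in the SMARCB1 Dox effect and the difference are not counted; LGR4 between the lines was added to these after seeing the data. Named pathway genes are all called genes of 7 lists, plus the 3 with the highest mean CPM in a list with none. RNA-seq was not analysed here, so values are ribosome occupancy, not translation efficiency.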

Additional observations from a re-analysis of the deposited data

How the results depend on the processing

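Replicate numbers were shared by the groups, but deviations of same-numbered libraries correlated above 0.1 in 5 of 6 group pairs (up to 0.323) and at 0.0461 between SMARCB1 DMSO and GFP Dox. Since not every pair was above 0.1, they were taken as names only. With a replicate block, calls between SMARCB1 Dox and SMARCB1 DMSO went from 2 to 13 over all genes. DESeq2 gave 34, no filter on low counts 46, only the groups compared 5, and at least 10 counts in every library 1 over all genes. That stricter filter removes genes low in one line, DKK1 among them, and gave 288 genes (3.06%) and 0 regulators in place of 1 between the lines under DMSO, and 377 genes under Dox. Library size alone also gave 0 regulators under DMSO, with 4.69% of all genes, and only the groups compared gave 1 in place of 2 under Dox, with 4.87% of all genes. Without a filter, the GFP Dox effect had 14 calls and the difference between the Dox effects 15, and DESeq2 gave 1 for the latter. The cause of these other changes was not tested.

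Leaving out 1 library gave calls over all genes from 299 to 668 between the lines under DMSO, from 348 to 1372 between the lines under Dox, from 1 to 22 in the SMARCB1 Dox effect, from 0 to 147 in the GFP Dox effect, from 0 to 105 in the difference. The regulators called ranged from 0 to 1 between the lines under DMSO, from 1 to 2 between the lines under Dox, from 0 to 1 in the difference. The counts of 668, 1372, 147 and 105 came without GFP Dox replicate 2, which leaves GFP Dox replicate 1 alone in its group, and the 22 without either GFP Dox library. The regulator called in the difference without GFP Dox replicate 2 was AXIN2 (2.80, adjusted p = 0.0490, edgeR's quasi-likelihood test).

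Of 626 values of single regulators under alternatives, 592 kept their sign and side of the threshold (or, given without a test, moved by less than the spread between replicates), 11 lost a call and 1 gained one, and 9 values of DKK1 or LGR4 given without a test moved by more than the spread between replicates. Sign changes came in 13 values, none of them called, each with 1 library left out; the ranges that follow are over those fits only. Between the lines under DMSO, LRP5 ranged from -0.11 to 0.47, its sign changing without SMARCB1 DMSO replicate 1, and LRP6 ranged from -0.17 to 0.54, its sign changing without SMARCB1 DMSO replicate 1. Between the lines under Dox, LRP6 ranged from -0.041 to 0.10, its sign changing without GFP Dox replicate 1. In the SMARCB1 Dox effect, DKK3 ranged from -0.0093 to 0.42, its sign changing without SMARCB1 Dox replicate 2, and LRP6 ranged from -0.42 to 0.30, its sign changing without SMARCB1 DMSO replicate 1, and ZNRF3 ranged from -0.066 to 0.55, its sign changing without SMARCB1 DMSO replicate 2. In the GFP Dox effect, LGR4 ranged from -0.65 to 0.019, its sign changing without GFP Dox replicate 2, and KREMEN1 ranged from -0.026 to 0.32, its sign changing without GFP DMSO replicate 2, and AXIN2 ranged from -1.82 to 0.24, its sign changing without GFP Dox replicate 1. In the difference, DKK1 ranged from -1.53 to 0.10, its sign changing without SMARCB1 Dox replicate 1 or SMARCB1 DMSO replicate 1, and LRP6 ranged from -0.52 to 0.20, its sign changing without SMARCB1 DMSO replicate 1, and ZNRF3 ranged from -0.19 to 0.43, its sign changing without SMARCB1 DMSO replicate 2.

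The KREMEN1 call under DMSO was also lost with library size alone (adjusted p = 0.104) and under the stricter filter (adjusted p = 0.0768), and that of AXIN2 under Dox with only the groups compared (adjusted p = 0.0723) by edgeR's quasi-likelihood test. Over settings with the libraries compared all kept, DESeq2 among them, their adjusted p in edgeR's quasi-likelihood test or DESeq2 ranged from 0.0190 to 0.104 and from 4.25e-05 to 0.0723. Library size alone shifted the median of all genes by 0.12 between the lines under Dox, 0.11 in the SMARCB1 Dox effect and 0.19 in the difference. Levels per kb divide a gene by its own coding length in every library, so they cannot change the order of groups for DKK1 or LGR4. Pearson correlation kept 1 of the 3 genes nearest to each. DKK1 is limited by its 2 to 6 counts in the SMARCB1 line.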
